A study of Mus musculus with 6 samples.

Results

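The 55 genes described here encode kinetochore proteins, spindle checkpoint proteins and other parts of the mitotic machinery. They were taken by symbol: Cenp genes with a single final letter from a to w, the Ncap genes of condensin, Smc2, Smc4 and 30 further genes listed by name. The rule found 55 of the 23038 genes in the files, and all 55 passed the filter on low counts. They were measured in mouse primary cultured oligodendrocyte precursor cells (mOPCs), dividing glial cells from which oligodendrocytes (OLs), the makers of myelin, arise. The cells were purified from embryos at embryonic day 14.5 by immunopanning, a selection on antibody-coated dishes, and were collected 72 h after transfection. Poly-A-selected RNA was sequenced in 3 libraries from cells given control siRNAs (siNC) and 3 from cells given siRNAs against Qk (siQk), the gene of the RNA-binding Qki proteins. The study used 3 different siRNAs for Qk. Which of them each siQk library received is not given in the sources used here, so differences among the siQk libraries and differences among siRNAs cannot be told apart. The labels call the libraries biological replicates.

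At mitosis, each chromosome builds a kinetochore on its centromere, the stretch of chromatin marked by the histone variant Cenpa. The inner kinetochore (the constitutive centromere-associated network, CCAN) carries the microtubule-binding outer kinetochore. The spindle checkpoint holds back the anaphase-promoting complex (APC/C) until every kinetochore is attached. Most of these genes are transcribed in late cell cycle phases, under the MuvB, B-Myb and Foxm1 regulators, so that their transcripts are known as marks of dividing cells, OPCs among them.

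Library totals ran from 58166490 tags (siNC replicate 1) to 141045937 tags (siQk replicate 1). A tag is the authors' unit of counting. The ribosomal RNA precursor Rn45s took 3.11% of the tags in siNC replicate 1 and between 0.169% and 0.389% in the other libraries. Without that library, 40 of the 55 genes were called higher, against 43 with it. The fewest tags of any of the 55 genes in a library were 57, for Cenpw in siNC replicate 1. RPKM, the tag count divided by exon length and by library total, compares levels between genes. Fold changes came from a fit to the counts that also scales for composition (TMM), and their errors are standard errors (SE). A gene was called changed at a P below 0.01 and an FDR below 0.1, by the quasi-likelihood test of edgeR with Benjamini-Hochberg adjustment over all 12505 genes tested. Qk itself stood at 209, 206 and 163 RPKM in siNC replicates 1, 2 and 3, and at 51.3, 76.6 and 36.2 RPKM in siQk replicates 1, 2 and 3. Its groups did not overlap, and it fell by 1.98 on the log2 scale (SE 0.28, FDR = 0.00311).

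Mitotic transcripts were higher in the siQk libraries. Of the 55 genes, 43 were called higher, 1 was called lower (Cenpq) and 11 were not called. Over all tested genes, 13.8% were called higher and 17.2% lower. Their log2 fold changes had a median of 1.42, against 0.01 over all tested genes, and single genes ran from -0.57 (Cenpq) to 2.13 (Troap). A call higher together with a log2 fold change of at least 1 was made for 37 of the 55 genes and for 2.52% of all tested genes. Every siQk library lay above every siNC library in RPKM for 51 of the 55 genes. That separation was common in these data, since 41.9% of all tested genes showed it. The groups overlapped for Cenpb, Cenpq, Ncapg and Anln. Together the 55 genes took 0.104%, 0.104% and 0.102% of all tags in siNC replicates 1, 2 and 3, and 0.263%, 0.219% and 0.164% in siQk replicates 1, 2 and 3. In bulk RNA, a larger share of dividing cells and more of these transcripts per cell cannot be told apart.

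**Figure D1:**
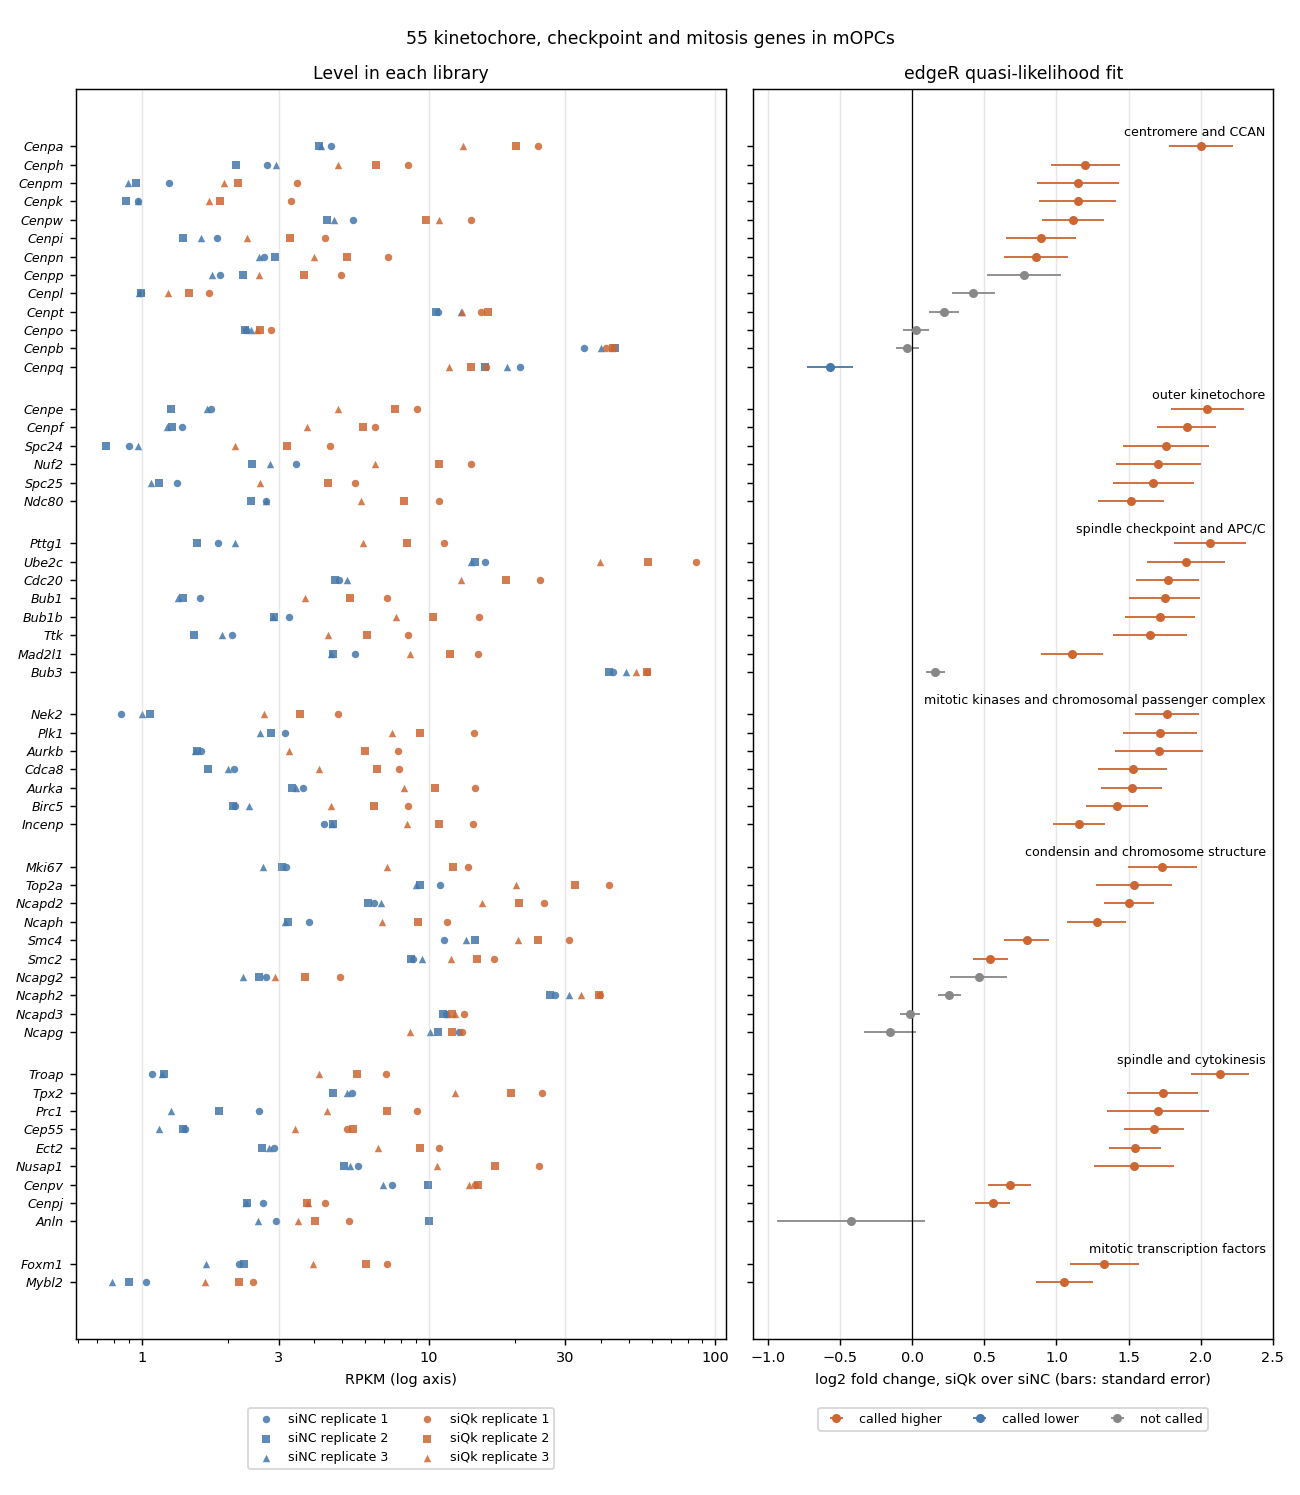
RPKM of each of the 55 genes in each library (left, log axis) and its log2 fold change, siQk over siNC, from edgeR (right, bars are standard errors), grouped by role. Blue symbols are siNC libraries and orange symbols siQk libraries. In the right panel 43 genes are orange (called higher), Cenpq is blue (called lower) and 11 are grey (not called).

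The centromere and CCAN genes were the most divided group, with 7 of 13 called higher, 1 lower and 5 not called, and a median log2 fold change of 0.86. Cenpa, the histone that marks the centromere (chr5:30666877-30674837, mm10), was at 4.56, 4.16 and 4.20 RPKM in the siNC libraries and at 24.1, 20.2 and 13.2 RPKM in the siQk libraries. Its log2 fold change was 2.0 (SE 0.22, FDR = 0.00152), and its lowest siQk library was well above its highest siNC library. Cenpb, which binds a DNA motif in centromeric repeats, was at 34.9, 44.6 and 39.9 RPKM in the siNC libraries and at 41.5, 44.1 and 43.7 RPKM in the siQk libraries. The groups overlapped, and its log2 fold change was -0.03 (SE 0.08, FDR = 0.756), a value near 0 whose sign turned with the scaling of the libraries.

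Within the CCAN, all 4 measured genes of the CENP-H/I/K/M complex were called higher, with log2 fold changes of 1.20 for Cenph, 0.89 for Cenpi, 1.15 for Cenpk and 1.15 for Cenpm. Of the calls for this complex, Cenph's alone stood in every alternative run. Cenpi lost its call without siNC replicate 2 or 3 or siQk replicate 1 or 2, Cenpk without any one of the siNC replicates, and Cenpm without siNC replicate 2 or 3 or siQk replicate 1. No gene of the CENP-O/P/Q/U/R complex was called higher. Cenpo had a log2 fold change of 0.03. Overlap with other genes took 22.5% of its exon bases, the largest with Adcy3 on the opposite strand. Mlf1ip, the older symbol of Cenpu, had a log2 fold change of 0.45, and Itgb3bp, which encodes CENP-R, one of -0.15. Both lie outside the rule for the 55 genes. For Cenpp the value was 0.78, with an FDR of 0.0512 and a P over the threshold. Overlap with other genes took 12.6% of its exon bases, the largest with Ippk on the opposite strand. Cenpp was called under 5 of the alternatives, the DESeq2 test and the fit without siQk replicate 3 among them.

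Cenpq, the remaining gene of that complex (chr17:40920809-40934574), was at 20.9, 15.7 and 18.8 RPKM in the siNC libraries and at 15.9, 14.02 and 11.8 RPKM in the siQk libraries. Its highest siQk library lay just above its lowest siNC library. The gene fell by 0.57 on the log2 scale (SE 0.16, FDR = 0.0319). That call was lost under 9 of 19 alternatives, including the fits without siNC replicate 1 or 3 and without siQk replicate 2 or 3. The difference between the CENP-H/I/K/M and CENP-O/P/Q/U/R genes was noticed after the values were seen and was not tested.

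Other CCAN partners gave unequal values too. Cenpn, which reads the Cenpa nucleosome, rose by a log2 fold change of 0.86, but its call was lost in each fit without 1 library except the one without siQk replicate 3. Its partner Cenpl was not called at 0.42. Cenpw rose by 1.12, while Cenpt, with which it forms a histone-fold pair, was at 10.7, 10.6 and 12.98 RPKM in the siNC libraries and at 15.2, 16.1 and 13.1 RPKM in the siQk libraries. Cenpt was not called (log2 fold change 0.22, SE 0.10, FDR = 0.136).

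All 6 outer kinetochore genes were called higher, with a median log2 fold change of 1.73 and the lowest at 1.52. Cenpe, a kinesin motor that moves chromosomes to the spindle equator, was at 1.74, 1.26 and 1.69 RPKM in the siNC libraries and at 9.12, 7.62 and 4.85 RPKM in the siQk libraries. Its groups were far apart (log2 fold change 2.04, SE 0.25, FDR = 0.00215). Cenpf, a large coiled-coil protein of the outermost kinetochore layer, was at 1.38, 1.28 and 1.23 RPKM and then at 6.52, 5.89 and 3.78 RPKM, with a log2 fold change of 1.90. The 4 subunits of the NDC80 complex, the main microtubule attachment of the kinetochore, moved by similar amounts, from 1.52 for Ndc80 through 1.67 for Spc25 and 1.71 for Nuf2 to 1.76 for Spc24. Each of their SEs was 0.23 or more, which is wider than most of the differences between them. Ndc80 was at 2.72, 2.40 and 2.71 RPKM in the siNC libraries and at 10.9, 8.20 and 5.81 RPKM in the siQk libraries.

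Among the spindle checkpoint and APC/C genes, 7 of 8 were called higher, with a median log2 fold change of 1.73. Pttg1 encodes securin, which holds separase inactive until anaphase. It was at 1.84, 1.56 and 2.11 RPKM in the siNC libraries and at 11.3, 8.43 and 5.91 RPKM in the siQk libraries (log2 fold change 2.06, SE 0.25, FDR = 0.00202). Ube2c, the E2 enzyme that starts ubiquitin chains for the APC/C (chr2:164769929-164772902), was at 15.8, 14.5 and 14 RPKM in the siNC libraries. In the siQk libraries it was at 85.6, 58.4 and 39.7 RPKM, with a mean of 61.3 RPKM that was the highest siQk mean of the 55 genes (log2 fold change 1.90, SE 0.27, FDR = 0.00326). Overlap with other genes took 22.8% of its annotated exon bases, the largest with Tnnc2 on the opposite strand. The library kit does not mark strand, so counting could not separate reads of the 2 strands there. Of the 55 genes, 18 shared at least 1 exon base with another gene, and for 2, Ube2c and Cenpo, the share was over 20%. The checkpoint kinases Bub1 (1.75) and Ttk (1.65), the checkpoint protein Bub1b (1.72) and the APC/C activator Cdc20 (1.77) had close log2 fold changes, with Mad2l1, the Cdc20 inhibitor, at 1.11.

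Bub3, the adaptor that brings Bub1 and Bub1b to the kinetochore (chr7:131560367-131571895), differed from its partners. It was at 44.1, 42.7 and 48.9 RPKM in the siNC libraries and at 57.8, 57.5 and 53.0 RPKM in the siQk libraries. The groups did not overlap in RPKM, but the log2 fold change was 0.16 (SE 0.07, FDR = 0.103) and the gene was not called, except when libraries were scaled by size alone (0.31). In siNC it had the highest mean level of the 55 genes, at 45.2 RPKM.

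All 7 genes of the mitotic kinases and the chromosomal passenger complex were called higher. The log2 fold changes of the kinases were 1.77 for Nek2, 1.72 for Plk1, 1.71 for Aurkb and 1.52 for Aurka. Cdca8 (1.53), Birc5 (1.42) and Incenp (1.16, the lowest of the group) together carry Aurkb on chromosomes. Nek2, a centrosome kinase, was at 0.843, 1.07 and 1.003 RPKM in the siNC libraries and at 4.83, 3.55 and 2.66 RPKM in the siQk libraries (SE 0.22, FDR = 0.00224). Incenp, the scaffold of the passenger complex, was at 4.31, 4.64 and 4.60 RPKM and then at 14.3, 10.9 and 8.39 RPKM (SE 0.18, FDR = 0.00462). Cdca8 (borealin) was at 2.10, 1.70 and 2.004 RPKM in the siNC libraries and at 7.88, 6.58 and 4.14 RPKM in the siQk libraries. For each of these genes the lowest siQk library was above the highest siNC library.

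The condensin and chromosome structure genes were again divided, with 6 of 10 called higher and a median log2 fold change of 0.67. Condensin I and condensin II share the ATPase core of Smc2 and Smc4 and differ in their other subunits. The core genes rose by log2 fold changes of 0.54 (Smc2) and 0.79 (Smc4), though the call for Smc2 was lost without siNC replicate 2 or siQk replicate 2. Of the condensin I subunits, Ncapd2 (1.5) and Ncaph (1.28) were called higher. None of the 3 condensin II subunits was called, with values of 0.46 for Ncapg2, 0.26 for Ncaph2 and -0.01 for Ncapd3. The sign of the Ncapd3 value changed with the scaling and the filter. Ncaph2 was at 27.6, 26.5 and 30.9 RPKM in the siNC libraries and at 39.7, 39.2 and 34.0 RPKM in the siQk libraries (SE 0.08, FDR = 0.0461), so its groups did not overlap, but its P missed the threshold. Overlap with other genes took 19.8% of its exon bases, the largest with Sco2 on the opposite strand. Ncaph2 was called under 4 alternatives, among them the fit without siQk replicate 3 (0.32).

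Ncapg, the third subunit particular to condensin I (chr5:45669891-45700547), was not called. Its RPKM was 12.8, 10.8 and 10.1 in the siNC libraries and 13.1, 12.1 and 8.63 in the siQk libraries. The siQk range enclosed the siNC range, and the log2 fold change was -0.15 (SE 0.18, FDR = 0.527), with a value of 0.00 when libraries were scaled by size alone. Overlap with other genes took 13.4% of the exon bases of Ncapg, the largest with Lcorl on the opposite strand. The part of reads from the shared bases in its level was not tested.

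Top2a and Mki67 completed the chromosome structure group. Top2a, the DNA topoisomerase that untangles sister chromatids, was at 10.99, 9.30 and 9.04 RPKM in the siNC libraries and at 42.5, 32.4 and 20.2 RPKM in the siQk libraries (log2 fold change 1.54, SE 0.26, FDR = 0.00605). Mki67, the surface layer protein of mitotic chromosomes used as the Ki-67 proliferation marker, was at 3.17, 3.09 and 2.65 RPKM and then at 13.7, 12.2 and 7.14 RPKM (log2 fold change 1.73, SE 0.24, FDR = 0.00306). For both genes every siQk library was above every siNC library.

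Of the spindle and cytokinesis genes, 8 of 9 were called higher, with a median log2 fold change of 1.54. Troap, a spindle-associated protein (chr15:99074973-99083409), had the largest log2 fold change of the 55 genes, 2.13 (SE 0.20, FDR = 0.000968). It was at 1.09, 1.19 and 1.18 RPKM in the siNC libraries and at 7.10, 5.62 and 4.13 RPKM in the siQk libraries. Tpx2, which activates Aurka on spindle microtubules, was at 5.42, 4.65 and 5.20 RPKM in the siNC libraries and at 24.9, 19.4 and 12.3 RPKM in the siQk libraries (log2 fold change 1.74, SE 0.24, FDR = 0.00323). The microtubule binder Nusap1 was at 5.67, 5.07 and 5.34 RPKM and then at 24.2, 17.1 and 10.7 RPKM, with a log2 fold change of 1.54.

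Genes of the later steps of division, Prc1 of the central spindle (1.70), the cytokinesis regulator Ect2 (1.54) and the abscission protein Cep55 (1.67), had log2 fold changes of the same order. Cenpj, which acts in centriole assembly rather than at the kinetochore, rose by only 0.56, and Cenpv by 0.68. Cenpj lost its call without siNC replicate 2 or siQk replicate 1, and Cenpv without siNC replicate 1 or siQk replicate 1 or 2.

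Anln, the actin- and septin-binding scaffold of the contractile ring, is also known as a gene of myelinating OLs. It was at 2.93, 10.01 and 2.54 RPKM in siNC replicates 1, 2 and 3 and at 5.26, 4.004 and 3.51 RPKM in the siQk libraries. The siNC replicate 2 library was above all others, and the siNC replicates 1 and 3 were below all siQk libraries. Its log2 fold change was -0.42 (SE 0.51, FDR = 0.540) and became 0.47 without siNC replicate 2, not called either way. Mobp, a myelin gene, was also highest in siNC replicate 2, at 25.2 RPKM against 5.12 and 1.61 in siNC replicates 1 and 3. Its part in the Anln value was not tested.

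Both mitotic transcription factors rose. Foxm1 was at 2.18, 2.28 and 1.67 RPKM in the siNC libraries and at 7.18, 6.06 and 3.96 RPKM in the siQk libraries (log2 fold change 1.33, SE 0.24, FDR = 0.00737). Mybl2, which encodes B-Myb, was at 1.03, 0.899 and 0.789 RPKM and then at 2.44, 2.18 and 1.66 RPKM (log2 fold change 1.05, SE 0.20, FDR = 0.008). The groups were apart for both genes.

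The levels of 2 genes could also be set against each other within each library, where scaling between libraries cancels. The 6 pairs were chosen after the values were seen, each from genes with unequal log2 fold changes, so the separation of the groups follows from the choice and no test is given. The RPKM of Ncapd2 over that of Ncapd3 was 0.564, 0.549 and 0.589 in the siNC libraries and 1.90, 1.71 and 1.24 in the siQk libraries, so the order of these levels turned over. Ncapg over Ncapd2, both of condensin I, went the other way, from 1.98, 1.75 and 1.49 to 0.519, 0.583 and 0.563. Bub1b over Bub3 was 0.0737, 0.0675 and 0.0588 in the siNC libraries and 0.259, 0.180 and 0.145 in the siQk libraries. For Cenpa over Cenpb, Cenpe over Cenpq and Ncaph over Ncaph2, the mean log2 ratio was higher in siQk by 1.99, 2.58 and 1.0.

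**Figure D2:**
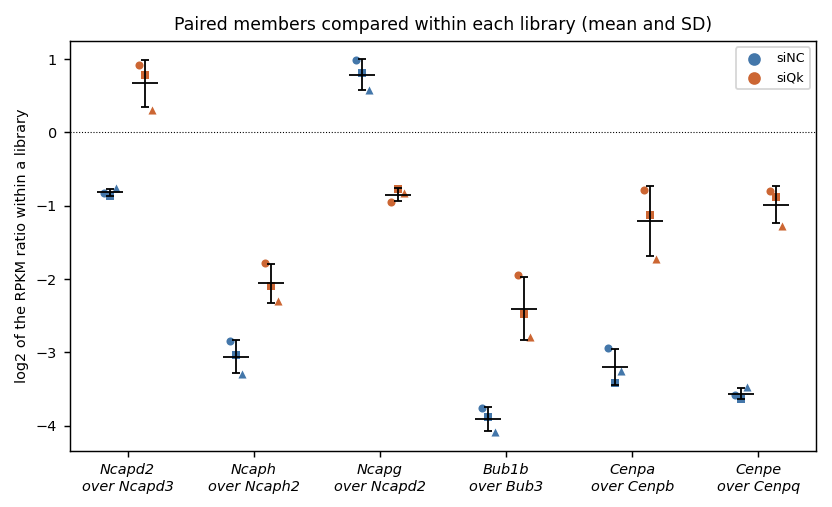
Log2 of the ratio of RPKM of 2 genes within each library, for 6 pairs, with siNC in blue and siQk in orange. Circles, squares and triangles are replicates 1, 2 and 3, and bars show the mean and SD over 3 libraries. The pairs were chosen for their unequal changes, and Ncapd2 over Ncapd3 and Ncapg over Ncapd2 cross 0, the line of equal levels.

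The siQk libraries differed in how far these genes rose. Over the 43 genes called higher, the median fold over the mean siNC RPKM was 4.18 in siQk replicate 1, 3.31 in replicate 2 and 2.24 in replicate 3. Of the 55 genes, 48 were highest in siQk replicate 1 and lowest in replicate 3, an order that 15.2% of all tested genes showed. The median coefficient of variation of the 55 genes was 28.5% over the siQk libraries, against 6.45% for all tested genes. In the siNC libraries it was 9.84%, against 10.8% for all tested genes. Qk did not share this order: its RPKM was highest in siQk replicate 2 and lowest in replicate 3. Their median log2 fold change was 1.19 without siQk replicate 1 and 1.62 without siQk replicate 3.

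**Figure D3:**
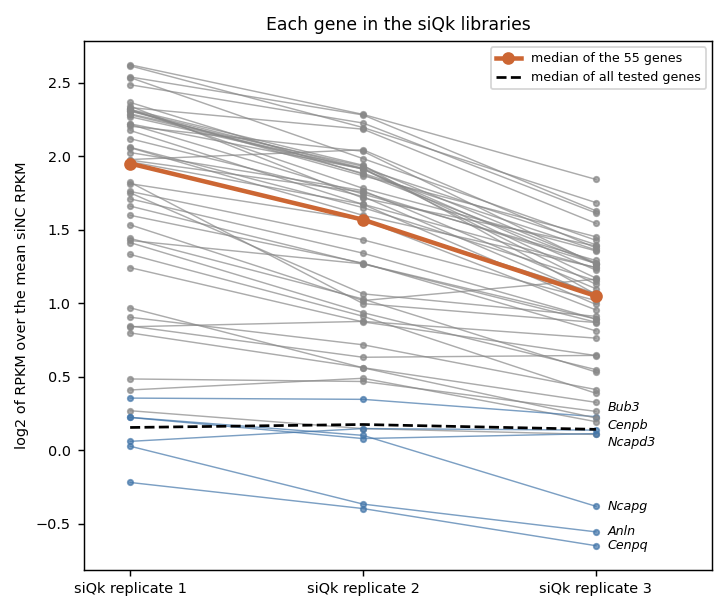
Log2 of the RPKM of each of the 55 genes in each siQk library over its mean in siNC. Each line joins the values of 1 gene, 6 genes are named and drawn in blue, and the order of libraries on the axis has no meaning. The median of the 55 genes (orange) is 1.95, 1.57 and 1.05 in siQk replicates 1, 2 and 3, while that of all 12505 tested genes (dashed) stays between 0.142 and 0.175.

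Other mitosis genes were counted in 10 lists outside the rule, 103 genes in all and all tested. Of these, 50 were called higher, 7 lower and 46 were not called, with a median log2 fold change of 0.36. These counts stand beside the 13.8% called higher and 17.2% called lower over all tested genes. All 12 mitotic kinesins were called higher, with a median of 1.63 and a range from 1.33 (Kif18a) to 2.01 (Kif23, the motor of the central spindle). The MIS12, KNL1 and SKA genes, which link the inner kinetochore to NDC80 and to microtubules, had 5 of 9 called higher, from -0.08 (Mis12) to 1.70 (Casc5, the symbol used for Knl1). Genes that load Cenpa onto centromeres had 3 of 4 called higher, with the lowest at 0.60 (Mis18a, listed as 2610039C10Rik). The 5 CENP genes listed under other symbols had 2 called higher and a median of 0.39, with Apitd1 highest at 0.60 and Itgb3bp lowest at -0.15.

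Several further lists had lower medians. The APC/C core and its regulators had 3 of 17 called higher and 3 lower (Anapc10, Anapc16 and Cdc27), both near the shares over all tested genes (13.8% and 17.2%), with a median of 0.07. Their range went from -0.54 (Anapc10) to 1.21 (Fbxo5, the early mitotic APC/C inhibitor). Cohesin and its regulators had 6 of 16 called higher and none lower, with a median of 0.12. Espl1, the separase that cuts cohesin, was highest at 1.71 and Stag1 lowest at -0.12. Of the other checkpoint genes, 5 of 8 were called higher, from -0.02 (Mad1l1) to 1.44 (Ccdc99, the symbol used for Spdl1).

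The centriole and spindle pole genes had 8 of 13 called higher and 2 lower, from -0.37 (Cep135) to 1.89 (Hmmr). The central spindle and abscission genes had 5 of 10 called higher and 1 lower, Rhoa, the GTPase that drives the contractile ring, at -1.04. Of the DREAM and MuvB genes, which hold cell cycle promoters silent in resting cells and open them in dividing ones, 3 of 11 were called higher and 1 lower, from -0.31 (Lin52) to 1.47 (Mybl1), with a median of 0.06. For comparison, 5 of 12 replication licensing genes were called higher and none lower, with a median of 0.69 and a range from 0.06 (Mcm4) to 1.26 (Mcm5). These lists were not compared by a test.

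**Figure D4:**
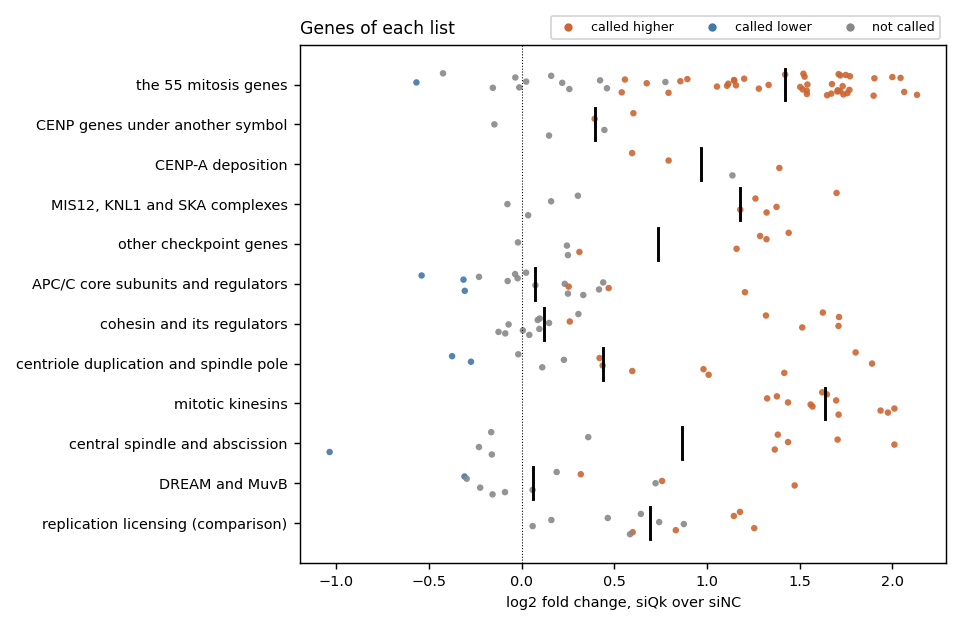
Log2 fold change, siQk over siNC, of each gene in the 55 genes and in 11 further lists. Points are genes, orange where called higher, blue where called lower and grey where not called, and black bars are list medians. All 12 mitotic kinesins are orange, whereas most APC/C, cohesin and DREAM genes lie near 0.

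Promoter sequence was read for the 49 of the 55 genes that have an entry among the RefSeq promoters of the build GRCm38.p6, 56 windows of 300 bases with 250 before and 50 after a start. Tpx2, Aurkb, Foxm1, Spc24, Incenp and Smc4 had no entry. Motifs of 2 kinds, known from cell cycle promoters, were searched on both strands. The first was the cell cycle genes homology region (CHR), the element bound by MuvB complexes, as TTTGAA or TTCGAA. The second was the CCAAT box, bound by NF-Y, as CCAAT. The bases before the start are shown for 5 genes, with matches in capitals. Ube2c, Cdc20 and Top2a were chosen as strongly raised genes with both motifs, Troap as the gene with the largest log2 fold change, and Bub3 as a gene that was not called. On the opposite strand the CHR form TTTGAA is read as TTCAAA and the CCAAT box is read as ATTGG.
Ube2c, chr2:164769829-164769928, plus strand: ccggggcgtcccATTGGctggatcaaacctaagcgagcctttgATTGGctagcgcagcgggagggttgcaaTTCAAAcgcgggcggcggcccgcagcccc
Cdc20, chr4:118437344-118437443, minus strand: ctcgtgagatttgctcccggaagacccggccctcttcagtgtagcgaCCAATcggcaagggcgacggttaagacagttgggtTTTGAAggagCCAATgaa
Top2a, chr11:99024200-99024289, minus strand: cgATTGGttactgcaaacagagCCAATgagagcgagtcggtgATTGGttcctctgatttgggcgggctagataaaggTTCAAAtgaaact
Troap, chr15:99074873-99074972, plus strand: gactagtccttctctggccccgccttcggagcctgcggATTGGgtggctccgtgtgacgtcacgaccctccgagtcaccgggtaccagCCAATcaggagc
Bub3, chr7:131560270-131560366, plus strand: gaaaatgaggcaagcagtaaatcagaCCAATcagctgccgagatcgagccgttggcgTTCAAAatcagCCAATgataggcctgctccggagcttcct
In Ube2c, Cdc20 and Top2a, a CHR match lay close to the start with CCAAT boxes further upstream or beside it. Bub3, with a log2 fold change of 0.16, held the same combination, a CHR match between its 2 CCAAT boxes. Troap, with a log2 fold change of 2.13, held 2 CCAAT boxes and no CHR match in the bases shown.

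Of the 56 windows, 58.9% held a CHR match, against 19.2% of all 32851 windows, and 62.5% held a CCAAT box, against 37.4%. Both motifs were in 46.4% of the windows of these genes and in 7.53% of all windows. All windows include those of genes not tested here. By gene, a CHR match was found for 59.2% of the 49 genes and 15.8% of the 9975 tested genes with a promoter. For a CCAAT box these shares were closer, 61.2% and 43.6%, and for both motifs they were 46.9% and 6.67%. Of the 42 CHR matches, 66.7% began within 60 bases of the start, against 28% of matches in all windows. Counted by gene, 22 of 29 genes with a CHR match were called higher (median log2 fold change 1.53), as were 15 of 20 without one (median 1.13). With a CCAAT box, 26 of 30 genes were called higher (median 1.54), and without one 11 of 19 (median 0.78). With both motifs, 20 of 23 genes were called higher (median 1.54), and without the pair 17 of 26 (median 1.08). These are counts of letters and no test was made of them.

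Cell type markers were measured in the same libraries. Their RPKM sums, unlike the fold changes, are not scaled for composition. The summed RPKM of 6 OPC markers was between 734 and 750 in the siNC libraries and between 949 and 1136 in the siQk libraries. Of the 6, 3 were called higher (Cspg4, Olig1 and Olig2). Pdgfra, Sox10 and Ptprz1 were not called, with log2 fold changes of 0.10, -0.02 and 0.13. The sum of 6 OL markers was between 2358 and 4542 in siNC and between 957 and 1566 in siQk, with 5 of the 6 called lower. Astrocyte markers (5, of which 4 were tested and 3 called lower) summed to between 84.1 and 135 in siNC and to between 20.8 and 24.9 in siQk, with Gja1 at 0.013 RPKM or less throughout. Of 5 neuronal markers, 4 were tested and 1, Snap25, was called higher. They summed to between 100.07 and 170 RPKM in siNC and to between 74.9 and 114 RPKM in siQk, and most of each sum was Tubb3. The log2 fold changes were -0.57 for Tubb3, -0.57 for Rbfox3, 0.87 for Syt1 and 2.64 for Snap25. The 5 microglial markers, mostly P2ry12 in siNC, summed to at most 3.30 RPKM in siNC and 0.403 RPKM in siQk. Only P2ry12 was tested, and it was called lower (log2 fold change -3.16). Its level was 0.669, 3.20 and 1.19 RPKM in the siNC libraries and 0.287 RPKM or less in the siQk libraries. The 5 fibroblast and vascular markers summed to at most 0.239 RPKM, with Cldn5 at 0 in every library. The OPC marker sums were thus higher in siQk, as the mitosis genes were, and the OL and astrocyte sums lower. The part of these shifts in the mitosis gene values was not tested.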

How the data were processed

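The 6 mOPC libraries were made with a poly-A kit that does not mark strand. Per the study's methods, reads were aligned by the authors to mm10 with OLego and quantified with Quantas. Versions and the gene annotation are not given in the sources used here. The authors deposited an estimated count of tags per gene, not normalized, and RPKM values, which equal the deposited tags scaled by exon length and library total. The sources used here do not say if a tag stands for 1 read or for a pair.

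Counts were rounded to integers. The 12505 of 23038 genes whose average logCPM exceeded 0 were tested with TMM factors (0.899 to 1.07) in edgeR 4.0.16 (limma 3.58.1, R 4.3.3), by glmQLFit and glmQLFTest with the group as the only term. SE is the absolute log2 fold change over the square root of F. P-values set the difference between the groups against the spread between these libraries. In siQk that spread may hold differences among siRNAs as well as among replicates. Replicates of 1 group differed by far more than sampling noise (chi-square per degree of freedom 36.3 or more). The same steps were run on simulated data with 12505 genes, 197 of them changed by 1 on the log2 scale. There, for siQk against siNC, 98.5% of the 197 were recovered and 7.62% of calls were false. In the measured libraries 3879 genes were called. The median coefficient of variation over the siQk libraries was 28.5% for the mitosis genes, against 6.45% for all tested genes. The simulated shares therefore need not hold for the mitosis genes.

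Values in every library were given, within each role, for the 2 genes of highest average logCPM, those of highest and lowest log2 fold change, and any called lower. For each list, the highest and lowest gene were named, except 1 gene that is not reported here. Other genes named, the ratios and the promoters shown were chosen after their values were seen. The 55 genes and all lists were chosen with earlier results of these data known. Symbols were matched directly or, for older names, through Entrez identifiers. Coordinates and promoters came from RefSeq on GRCm38, the build called mm10, and exon overlaps from GENCODE M21. Each overlap is a share of all GENCODE exon bases of a gene, taken over its overlapping genes together. These bases need not be the exons the authors counted. For Ncapg they number 7066, against an exon length of 4027 in the deposited values.

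Alternatives were other tests (DESeq2 1.42.0, and the likelihood ratio and exact tests of edgeR), scalings, filters, thresholds, a replicate block and leaving out each library. Thinning every library to the depth of the smallest was added after seeing the data.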

Additional observations from a re-analysis of the deposited data

How the results depend on the processing

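Across 19 alternatives, 1044 single values of the 55 genes were recomputed: 982 kept direction and call, 37 lost the call, 11 gained it and 14 changed sign, with the cause not tested. Of the 43 genes called higher, 35 kept the call in every alternative, and 36 apart from the stricter cutoff (FDR below 0.05 and a log2 fold change of at least 1), which left 37. The number called higher ran from 37 to 47 (library size only), from 37 (without siNC replicate 2) to 45 (without siQk replicate 3) with 1 library left out, and was 43 after thinning. The median over the 55 genes ran from 1.19 to 1.62 on the log2 scale. Scaling by library size alone moved the median of all genes to 0.16 and that of the 55 genes to 1.57.

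The gene called lower, Cenpq, was 1 of 55, and the number became 0 under upper quartile scaling, library size only, edgeR's filterByExpr, thinning and the stricter cutoff, and was 0 to 1 with 1 library left out. The 7 lower calls in the pathway lists became 12 with DESeq2 and at FDR below 0.05, 3 with upper quartile scaling, 2 with library size only, 1 under the stricter cutoff and 2 to 6 with 1 library left out. Changed genes over all tested numbered 3879, 946 under the stricter cutoff, and between 2478 (siQk replicate 1 left out) and 3704 over the fits without 1 library. Lower calls made up 55.4% of them, 44.4% under upper quartile scaling and 31.4% with library size only.

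Signs turned for 5 genes that were not called, given here with the lowest and highest value when 1 library was left out. Cenpb became 0.027 with upper quartile scaling and 0.115 with library size only, and ran from -0.084 to 0.044. Ncapd3 became 0.048 and 0.140 under those scalings, 0.011 without the filter and 0.0017 with filterByExpr, and ran from -0.056 to 0.032. Ncapg became 0.0044 with library size only and ran from -0.281 to 0.0016. Cenpo ran from -0.025 to 0.059, and Anln from -0.762 to 0.471, the highest without siNC replicate 2.

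The groups share replicate numbers. Same-numbered libraries did not deviate together (correlations -0.05, -0.15 and -0.34), but with 3 libraries a group this cannot show whether they were paired. With a replicate block, 43 of the 55 genes were called higher, the median of the 55 was 1.38, changed genes over all tested were 2796 and the lower calls in the pathway lists were 3. Each of the 55 genes had 57 tags or more in every library, and the precision rests on 3 libraries a group.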
